A study of Mus musculus with 6 samples.

Results

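The SoxB and SoxC factors are 2 subgroups of the Sox family of transcription factors, which bind DNA through a high-mobility-group (HMG) box. Of the 26264 genes in the deposited count table, 7 were taken by symbol: Sox1, Sox2 and Sox3 (SoxB1), Sox21 (SoxB2), and Sox4, Sox11 and Sox12 (SoxC). Measured were read counts per gene in 6 bulk RNA libraries. The cells were cultured neural stem cells of the adult mouse spinal cord, grown in DMEM-F12 with EGF and FGF2 and sorted by flow cytometry for green fluorescent protein (GFP) that reports Pdgfra, a growth factor receptor of oligodendrocyte precursors. Both groups of 3 libraries were on a C57BL6J background. The genotype field reads PDGFRaGFP/- for the GFP-negative libraries and PDGFRaGFP/+ for the GFP-positive ones, and the labels do not say whether this names the allele or the sorted fraction. How the reporter was built, the age of the mice beyond adult and any pooling of animals are not stated in the labels. The library numbers 314, 315 and 316, each shared by a library of either fraction, are replicates 1, 2 and 3 below. The study asks how these stem cells produce the oligodendrocyte lineage, and the comparison sets GFP-positive against GFP-negative cells.

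In the developing nervous system, SoxB1 proteins hold cells in the progenitor state and bind DNA together with partner factors such as the POU proteins. Sox21 is known to act against SoxB1 proteins in progenitors. SoxC proteins are known for switching on genes of differentiating neurons, and Sox4 has also been studied as a factor that holds back the maturation of oligodendrocytes. Sox2 and Sox3 are also expressed in oligodendrocyte precursors.

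Libraries held between 31067850 and 45207335 counts, and the members between 408 and 66829 counts in a library, so counting error is small beside the spread between libraries. Values are CPM, counts scaled to a common library size by trimmed means (TMM). A gene was called when the edgeR quasi-likelihood test gave a Benjamini-Hochberg adjusted p below 0.05 over the 14554 genes tested. Fold changes are given as log2 of the GFP-positive over the GFP-negative level. Pdgfra itself stood at 205 to 245 CPM in the positive and at 8.04 to 19.3 CPM in the negative libraries. All 10 listed oligodendrocyte precursor markers rose in GFP-positive cells, with a summed level of 4984 to 5212 against 2337 to 2678 CPM. All 10 listed astrocyte markers fell, with sums of 506 to 629 against 3748 to 4647 CPM. Aldh1l1 lost its call in 3 refits, at an edgeR adjusted p of 0.0619 without GFP-positive replicate 1, 0.0593 without GFP-positive replicate 3 and 0.0722 without both libraries of replicate 3, which left 9 astrocyte markers lower. Of 8 ependymal markers, 4 were tested and fell, with sums of 5.78 to 7.70 against 18.0 to 25.9 CPM. Microglia, endothelial and mural or fibroblast markers summed to at most 2.65, 9.82 and 2.14 CPM in any library, with the microglial C1qa and the endothelial Cldn5 at 0 throughout. Endothelial sums were 1.39 to 2.26 CPM in GFP-positive and 2.55 to 9.82 in GFP-negative libraries, and 1 of 3 tested fell (Flt1). Mural or fibroblast sums were 0.136 to 0.381 against 1.82 to 2.14 CPM, and Col1a1, the 1 tested, fell. Microglia sums were 0.490 to 1.17 against 0.607 to 2.65 CPM, and 0 of 1 tested was called. Schwann cell marker sums were 27.6 to 39.5 CPM in GFP-positive and 24.4 to 34.6 in GFP-negative libraries. Egr2 had means of 25.3 and 21.2 CPM and Pmp22 of 6.76 and 5.87 CPM, while Foxd3 was at 0 in all libraries. Of these markers, 0 of 3 tested were called by edgeR (1 higher with the replicate block). These are mixtures of cells, so fewer cells of a type and less RNA per cell cannot be told apart.

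All 7 members passed the count filter. In GFP-positive cells 4 were called higher (Sox3, Sox4, Sox11 and Sox12), 2 were called lower (Sox1 and Sox2), and Sox21 was not called. Of all tested genes, 55.4% were called, 26.1% higher and 29.2% lower. The median log2 fold change was 0.35 over the members and -0.0058 over all genes tested. The same 4 members had every GFP-positive library above every GFP-negative one, which held for 31.3% of tested genes, and Sox1 and Sox2 had every GFP-positive library below, which held for 33.0%. The SoxC genes all rose, while the SoxB genes moved in both directions.

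**Figure D1:**
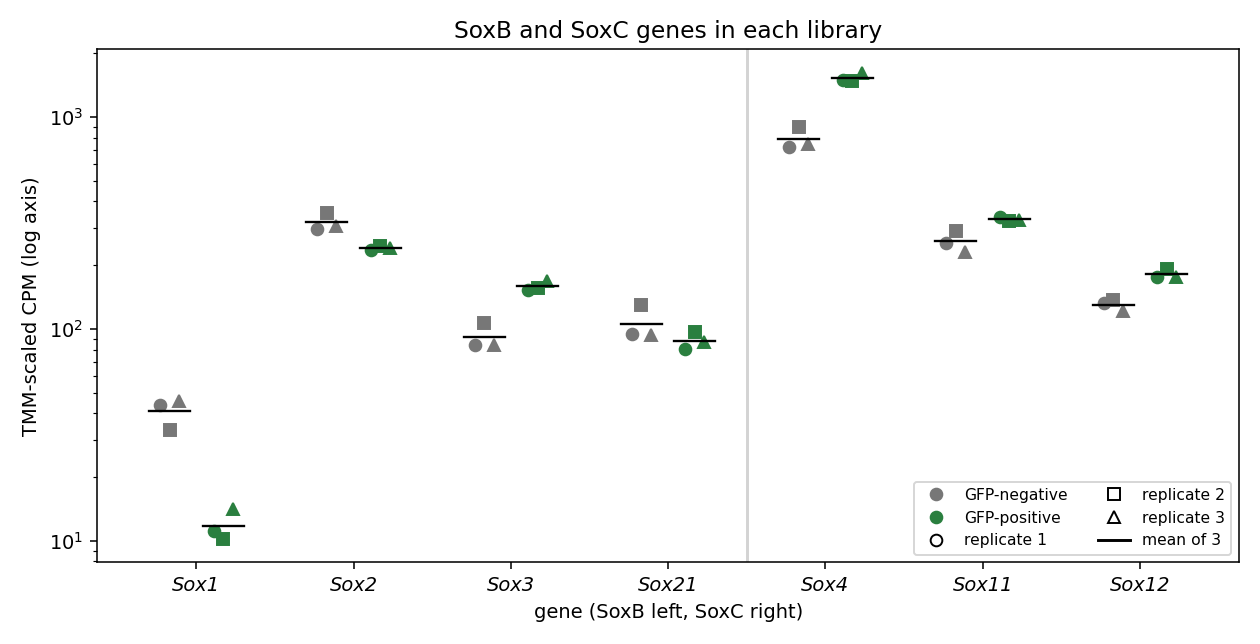
CPM of each member (log axis) in the 6 libraries, with GFP-negative libraries in grey, GFP-positive ones in green, marker shape giving the replicate and bars the mean of 3 libraries. The 2 colours separate for every gene except Sox21, with green above grey for Sox3 and the 3 SoxC genes and below it for Sox1 and Sox2.

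Because the 3 SoxC genes rose together, the 250 bases before the RefSeq start of each (build GRCm38.p6, not the mm39 build of the counts) are shown with that of Sox1, which fell most. Each runs 5′ to 3′ on the gene's strand. Capitals mark matches, on either strand, to 5 motifs searched: the NF-Y box CCAAT, the POU octamer ATGCAAAT, the Sox core ACAATG, the core ACAAAG shared by Sox and Tcf/Lef proteins, and TGGGAA, the core of the Notch effector RBPJ. Sox4 lies on the minus strand at chr13:28953700-28953949, Sox11 on the minus strand at chr12:27342719-27342968, Sox12 on the minus strand at chr2:152398047-152398296, and Sox1 on the plus strand at chr8:12395269-12395518.
Sox4: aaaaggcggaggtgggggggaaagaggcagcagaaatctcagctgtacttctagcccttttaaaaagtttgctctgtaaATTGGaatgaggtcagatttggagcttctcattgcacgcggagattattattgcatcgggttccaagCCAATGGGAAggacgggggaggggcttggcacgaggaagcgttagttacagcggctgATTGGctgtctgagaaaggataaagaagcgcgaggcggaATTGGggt
Sox11: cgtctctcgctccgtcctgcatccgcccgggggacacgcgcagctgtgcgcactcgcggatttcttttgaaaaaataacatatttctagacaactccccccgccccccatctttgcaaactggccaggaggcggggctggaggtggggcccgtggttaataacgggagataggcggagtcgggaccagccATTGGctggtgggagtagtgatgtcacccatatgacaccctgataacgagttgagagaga
Sox12: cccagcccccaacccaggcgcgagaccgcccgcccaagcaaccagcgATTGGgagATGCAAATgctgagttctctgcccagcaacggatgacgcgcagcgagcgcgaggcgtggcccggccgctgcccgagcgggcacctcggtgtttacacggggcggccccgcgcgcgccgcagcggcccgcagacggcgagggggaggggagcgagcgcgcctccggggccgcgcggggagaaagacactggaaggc
Sox1: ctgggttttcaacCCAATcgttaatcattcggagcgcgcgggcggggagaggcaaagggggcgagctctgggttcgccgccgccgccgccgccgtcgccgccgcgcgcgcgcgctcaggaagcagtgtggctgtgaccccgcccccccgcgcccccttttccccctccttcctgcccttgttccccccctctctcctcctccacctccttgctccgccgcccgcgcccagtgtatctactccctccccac

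A promoter was matched for 6 of the 7 members, all but Sox3. CCAAT was found in 5 of the 6 (Sox1, Sox2, Sox4, Sox11 and Sox12) and in 33.8% of all 32851 promoters of this length. Sox4 had 4 matches, 1 of which overlaps its only TGGGAA match. That motif was in 21.6% of all promoters and in no other member's window. The POU octamer was in the Sox12 window alone among the members and in 1.60% of all promoters, ACAAAG in that of Sox2 alone and in 16.5%, and ACAATG in none of the 6 and in 10.7%. CCAAT was shared by members that rose and members that fell. GC content was 50.8% for Sox4, 58.0% for Sox11, 74.4% for Sox12 and 71.2% for Sox1, against a median of 52.4% over all promoters. These are matches of letters in a fixed window.

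Among the SoxB1 genes, Sox1 (Entrez 20664), a factor of early neural progenitors, had the largest difference of the 7 members. It stood at 11.1, 10.2 and 14.1 CPM in replicates 1, 2 and 3 of the GFP-positive fraction, and at 43.7, 33.4 and 45.8 CPM in those of the GFP-negative fraction. Every GFP-positive library was low, and the groups did not overlap. The means were 11.8 ± 2.05 against 41.0 ± 6.65 CPM (SD, n = 3), 3.47-fold lower in the sorted positive cells (log2 fold change -1.80, SE 0.16, 95% interval -2.16 to -1.43, edgeR adjusted p = 4.89e-05). Of all tested genes, 18.3% were called with an absolute log2 fold change above 1, and Sox1 is the member among them.

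Sox2 (Entrez 20674), the SoxB1 factor most used as a neural stem cell marker, remained abundant in both fractions. Its GFP-positive libraries held 237, 248 and 241 CPM and its GFP-negative libraries 296, 352 and 307 CPM. The GFP-positive values lay close together and below all GFP-negative values, at 242 ± 5.47 against 318 ± 29.8 CPM (SD, n = 3). The level was 1.32-fold lower in the sorted positive cells (log2 fold change -0.40, SE 0.07, 95% interval -0.56 to -0.23, edgeR adjusted p = 0.00200).

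Sox3 (Entrez 20675), the X-linked member of the subgroup, went the other way. It stood at 153, 157 and 169 CPM in GFP-positive and at 83.7, 107 and 84.0 CPM in GFP-negative replicates 1, 2 and 3. All GFP-positive libraries were high, and GFP-negative replicate 2 lay nearest to them. The means were 160 ± 7.99 against 91.5 ± 13.2 CPM (SD, n = 3), or, as log2 fold change, 0.80 (SE 0.10, 95% interval 0.58 to 1.03, edgeR adjusted p = 2.55e-04).

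Sox21 (Entrez 223227), the SoxB2 factor, did not pass the threshold. It stood at 80.6, 97.0 and 86.4 CPM in GFP-positive and at 94.8, 130 and 93.4 CPM in GFP-negative replicates 1, 2 and 3. In each number the GFP-positive library was the lower one, but the groups overlapped, since GFP-positive replicate 2 exceeded GFP-negative replicates 1 and 3. The log2 fold change was -0.27 (SE 0.13, 95% interval -0.57 to 0.04, edgeR adjusted p = 0.119). Same-numbered libraries deviated together, and with the replicate block the value was -0.26 (SE 0.07) and passed (edgeR adjusted p = 0.0145), a fit in which 30.4% of tested genes were called lower. Without GFP-negative replicate 2 it was -0.09 (edgeR adjusted p = 0.374), and without both libraries of replicate 2 it was -0.16 (0.0512).

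Among the SoxC genes, Sox4 (Entrez 20677), an activator of neuronal and mesenchymal genes, was the most abundant member and had the largest rise. It stood at 1490, 1475 and 1619 CPM in replicates 1, 2 and 3 of the GFP-positive fraction, and at 725, 898 and 743 CPM in those of the GFP-negative fraction. The 2 groups lay far apart relative to the spread inside each. The means were 1528 ± 79.3 against 788 ± 94.9 CPM (SD, n = 3), 1.94-fold higher in the sorted positive cells (log2 fold change 0.95, SE 0.09, 95% interval 0.74 to 1.17, edgeR adjusted p = 7.68e-05). Of tested genes, 99.7% had a lower mean CPM than Sox4.

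Sox11 (Entrez 20666), a partner of Sox4 in neuronal differentiation, differed less. Its GFP-positive libraries held 339, 325 and 325 CPM and its GFP-negative libraries 255, 290 and 231 CPM. The groups did not overlap, with GFP-negative replicate 2 again the highest of its group. The means were 330 ± 8.24 against 259 ± 29.7 CPM (SD, n = 3), or, as log2 fold change, 0.35 (SE 0.08, 95% interval 0.16 to 0.54, edgeR adjusted p = 0.00737). Without replicate 1 the value was 0.33 and without replicate 3 it was 0.29, and neither passed (edgeR adjusted p = 0.0777 and 0.0525). With a trend over gene length and GC content removed it was 0.21 (edgeR adjusted p = 0.0294).

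Sox12 (Entrez 20667), the SoxC protein known as the weakest activator of the subgroup, rose as well. It stood at 175, 192 and 177 CPM in replicates 1, 2 and 3 of the GFP-positive fraction, and at 132, 137 and 121 CPM in those of the GFP-negative fraction. The groups did not overlap, at 182 ± 9.42 against 130 ± 8.13 CPM (SD, n = 3). The log2 fold change was 0.48 (SE 0.06, 95% interval 0.33 to 0.63, edgeR adjusted p = 4.43e-04).

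**Figure D2:**
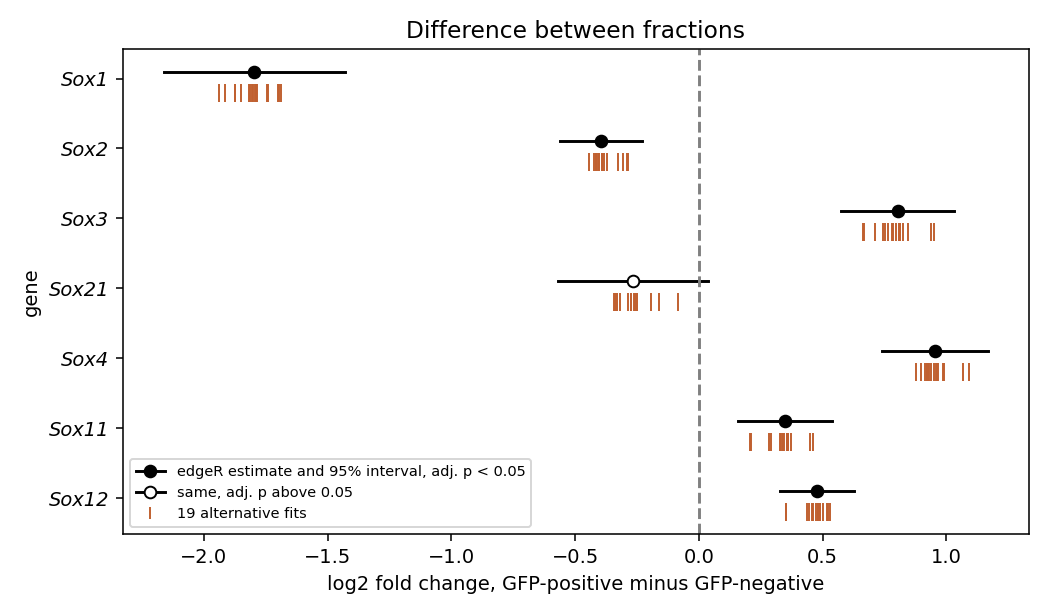
Log2 fold change of each member (GFP-positive minus GFP-negative) with its 95% interval from the edgeR fit (black; open where the adjusted p was above 0.05) and the values of 19 alternative fits (orange ticks). Sox1 and Sox2 lie left of 0 and Sox3, Sox4, Sox11 and Sox12 right of 0 in every fit drawn, and the interval of Sox21 crosses 0.

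Each of the 7 members kept its own direction in all 3 library numbers, as did 75.5% of all tested genes. The log2 ratio of GFP-positive to GFP-negative CPM was -1.98, -1.71 and -1.70 for Sox1 in replicates 1, 2 and 3, and -0.32, -0.51 and -0.35 for Sox2. For Sox4 it was 1.04, 0.72 and 1.12, and for Sox3 0.87, 0.56 and 1.00. Replicate 2 gave the smallest rise for Sox3, Sox4 and Sox11 and the largest drop for Sox2 and Sox21.

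**Figure D3:**
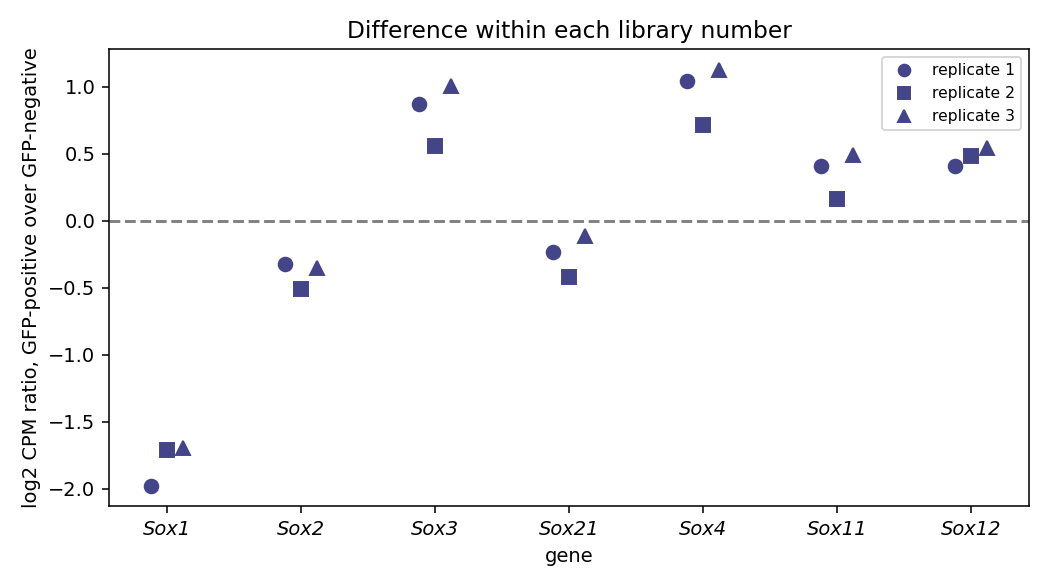
Log2 ratio of GFP-positive to GFP-negative CPM within each library number, with marker shape giving the replicate. All 3 points of a gene lie on the same side of 0 for each of the 7 genes, and for Sox4 they run from 0.72 to 1.12.

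GFP-negative replicate 2 stood apart from the other libraries of its group. It had the highest GFP-negative level of Sox2, Sox3, Sox21, Sox4, Sox11 and Sox12, and the lowest of Sox1. The same library was also the highest of its group for Pdgfra (19.3 CPM) and for Sox10, a factor of the oligodendrocyte lineage (12.5 against 2.34 and 3.53 CPM). It was the highest of its group for 9 of the 10 precursor markers and the lowest for Cspg4, a proteoglycan of these precursors (153 against 208 and 188 CPM). Of the 10 astrocyte markers it was the highest for 1, the folate enzyme Aldh1l1 (121 against 15.2 and 26.9 CPM), and the lowest for 4. Without it, Sox4 was higher by 1.07, Sox3 by 0.94, Sox11 by 0.45 and Sox12 by 0.53, while Sox1 had a value of -1.92 and Sox2 one of -0.31, and all 6 kept their calls (edgeR adjusted p from 1.35e-06 to 8.18e-04).

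Levels of different genes were compared as CPM per kilobase of RefSeq gene length. Of the members, 6 are annotated with 1 exon and Sox12 with up to 2. The RefSeq length differed most from the longest GENCODE transcript for Sox1 (4037 against 4832 bases) and Sox2 (2467 against 2057 bases). In GFP-positive cells the order was Sox4 at 320 ± 16.6, Sox2 at 98.0 ± 2.22, Sox3 at 77.3 ± 3.87, Sox12 at 40.9 ± 2.12, Sox11 at 39.0 ± 0.975, Sox21 at 23.2 ± 2.19 and Sox1 at 2.93 ± 0.507 CPM per kilobase (SD, n = 3). Of the neighbours in that order, Sox12 and Sox11 overlapped between libraries and the others did not. In GFP-negative cells Sox4 at 165 ± 19.9 and Sox2 at 129 ± 12.1 were closer to each other, followed by Sox3 at 44.3 ± 6.39 CPM per kilobase (SD, n = 3). Sox11, Sox12 and Sox21 followed at 30.6, 29.4 and 27.9 CPM per kilobase, each overlapping the next, and Sox1 was the lowest at 10.2. With GENCODE transcript lengths the order of the means was the same. Sox4 (151 to 187) and Sox2 (144 to 171 CPM per kilobase) then overlapped between GFP-negative libraries.

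The summed level of the 3 SoxB1 genes was alike in both fractions, at 173, 179 and 183 CPM per kilobase in GFP-positive and 172, 203 and 176 in GFP-negative replicates 1, 2 and 3. The make-up of that sum differed. Sox2 gave 53.4% to 56.1% of it in GFP-positive and 70.0% to 70.5% in GFP-negative libraries. The share of Sox3 was 42.5% to 44.7% against 23.1% to 25.5%, and that of Sox1 was 1.41% to 1.91% against 4.08% to 6.44%. These shares rest on RefSeq lengths and were not taken with GENCODE lengths. The SoxC sum was 391, 390 and 417 against 212, 253 and 210 CPM per kilobase. The ratio of the SoxC to the SoxB1 sum was therefore 2.26, 2.18 and 2.28 in GFP-positive and 1.23, 1.25 and 1.19 in GFP-negative libraries. With GENCODE transcript lengths it was 1.96 to 2.07 in GFP-positive and 1.05 to 1.10 in GFP-negative libraries. Within SoxC, Sox4 gave 79.0% to 81.2% in GFP-positive and 71.6% to 74.2% in GFP-negative libraries.

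**Figure D4:**
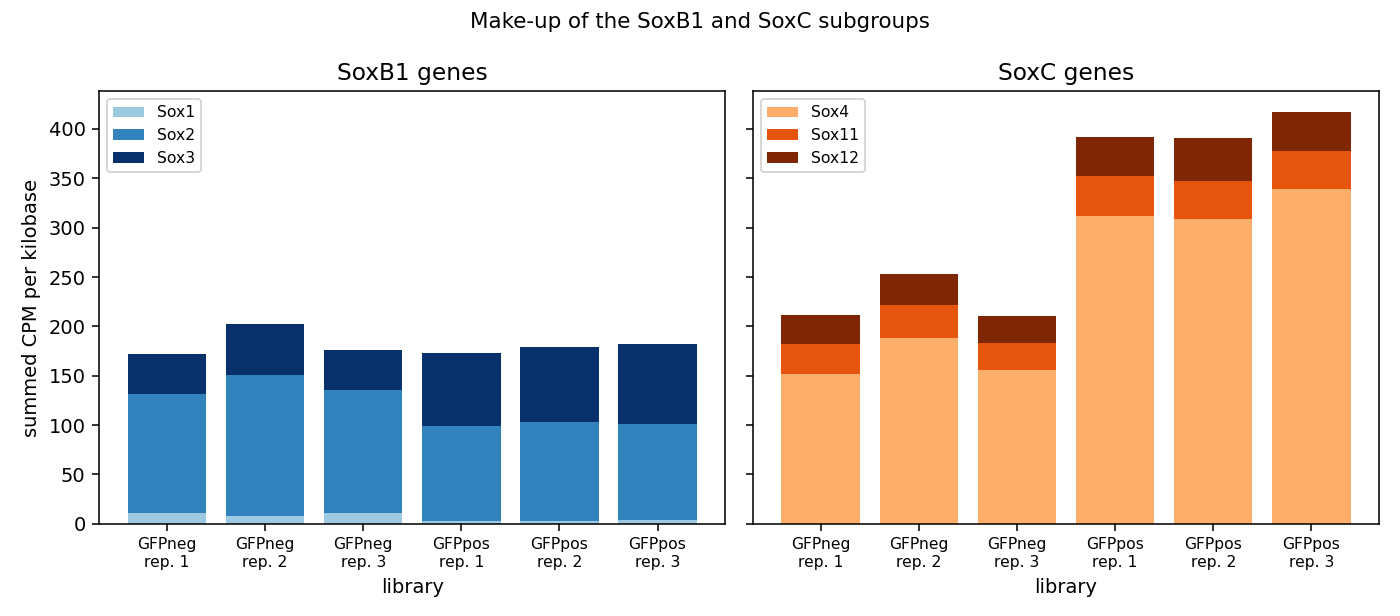
Stacked CPM per kilobase of the SoxB1 genes (left) and SoxC genes (right) in each of the 6 libraries, on the same scale. The SoxB1 bars are of similar height, from 172 to 203, with a larger Sox3 part in GFP-positive libraries, while the SoxC bars are at 390 to 417 in GFP-positive and 210 to 253 in GFP-negative libraries.

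The count ratio of 2 genes in the same library does not depend on scaling between libraries. It was taken for the 9 pairs inside SoxB and inside SoxC. The log2 ratio of Sox2 to Sox3 counts was 0.60 ± 0.08 in the positive and 1.80 ± 0.07 in the negative fraction (SD, n = 3), a difference of -1.20. For Sox1 to Sox3 the difference was -2.61, for Sox1 to Sox2 -1.40, for Sox1 to Sox21 -1.54 and for Sox3 to Sox21 1.07. For Sox4 it was 0.60 against Sox11 and 0.48 against Sox12. The groups did not overlap in these 7 pairs. Each gave an exact two-sided permutation p of 0.1, the smallest that 3 against 3 libraries allow, and 0.129 adjusted over the 9 pairs. The other 2 pairs overlapped, Sox2 to Sox21 at -0.14 and Sox11 to Sox12 at -0.12 (exact permutation p = 0.3 each). The 9 pairs share members and are not independent. How often the ratio of any 2 tested genes separates the groups was not computed. Of single tested genes, 31.3% had every GFP-positive library above every GFP-negative one, and 33.0% had every one below.

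Genes that lie over members were read because the strand setting of the counting is not given. Sox2 lies inside Sox2ot and Sox1 inside Sox1ot, long non-coding genes on the same strand, without shared exon bases in GENCODE M21. Gm25239, on the strand of Sox1, shares 86 exon bases with it, 1.78% of those of Sox1. Sox2ot held 52.9, 44.7 and 58.2 CPM in replicates 1, 2 and 3 of the positive fraction, against 79.9, 67.4 and 90.3 CPM in the negative one. It fell in GFP-positive cells by 0.61 on the log2 scale (SE 0.13, edgeR adjusted p = 0.00396), and Sox1ot fell by 1.54 (SE 0.33, edgeR adjusted p = 0.00466) at 24 to 100 counts per library. Both moved in the direction of the gene they enclose, and 29.2% of all tested genes were called lower. Within the GFP-negative fraction, replicate 2 was the lowest for Sox2ot but the highest for Sox2 (352 against 296 and 307 CPM). In the same annotation, 54.6% of the exon bases of Sox4 lie opposite the antisense gene Gm26735, which was not analysed here, and 18.8% of those of Sox21 lie opposite Gm4675. Gm4675 had 84 to 145 counts per library. Whether reads of Sox4 and its antisense gene were mixed was not tested.

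Of the 12 listed Sox genes outside the 2 subgroups, 10 were tested: 4 rose, 1 fell and 5 were not called. Among all tested genes, 55.4% were called, 26.1% higher and 29.2% lower. The median log2 fold change of the 10 Sox genes was 0.26. That median was not stable, at 0.16 without GFP-positive replicate 1, 0.48 without GFP-negative replicate 2, 0.51 without GFP-positive replicate 2, 0.09 without replicate 1, 0.71 without replicate 2 and 0.046 with no low-count filter. By p-value the first were Sox8, a SoxE factor of the oligodendrocyte lineage, higher by 1.07, Sox6, a SoxD factor, higher by 1.28, and Sox7, a SoxF factor of endothelial cells, at -3.98. The remaining SoxB2 gene, Sox14, had at most 4 counts in a library, and Sox17 at most 2. Of the 4 Tcf and Lef genes, which also carry an HMG box, 3 were tested and 2 fell, Tcf7l1 at -1.05 and Tcf7l2 at -0.36. Tcf7, the other tested, was at -0.71 (edgeR adjusted p = 0.0706), and passed without GFP-negative replicate 2 (-0.89, edgeR adjusted p = 0.0247). Tcf7l2 lost its call without both libraries of replicate 3 (-0.30, edgeR adjusted p = 0.0647).

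Factors listed as partners of SoxB1 proteins differed in both directions. Of 8 tested, 3 rose, 3 fell and 2 were not called, beside 26.1% called higher and 29.2% lower among all tested genes. The median log2 fold change of the 8 was 0.07. The median ranged from 0.0070 without replicate 3 to 0.18 without replicate 2. With 1 library left out it was 0.14 without GFP-positive replicate 2, 0.12 without GFP-negative replicate 2, 0.04 without GFP-negative replicate 3 and 0.04 without GFP-positive replicate 3. Chd7, a chromatin remodeler that interacts with Sox2, stood at 1218 ± 23.7 against 681 ± 36.1 CPM (SD, n = 3) and was higher by 0.84 (SE 0.06, edgeR adjusted p = 1.87e-05). Pou6f1 was higher by 0.97, while Pou3f2, a POU factor of neural progenitors and neurons, had a value of -0.71. Pou3f3 was at 0.28 and passed with the replicate block (edgeR adjusted p = 0.0165, against 0.0545 without it).

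Of 12 genes listed as associated with SoxB1 in neural stem cells, 11 were tested, 9 fell and 1 rose (Notch1), with a median of -1.98. Among all tested genes, 29.2% were called lower and 26.1% higher. The list was chosen with earlier results of these data known, so its counts are a description. Ccnd1 was not called, and Nr2e1 was at 0.136 CPM or less in every library. Hes5, a Notch-induced repressor, had a value of -2.85, Fabp7, a lipid carrier of radial glia, -1.83 and Nes, an intermediate filament of stem cells, -1.65. Notch1 was higher by 0.31, a call lost without replicate 3 and after removing the length and GC trend. Fabp7, Nes, Vim and Gfap are also expressed by astrocytes, whose listed markers fell in the same comparison, and the part of that in these values was not tested.

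Of 10 genes listed as associated with SoxC, 9 were tested, 6 rose and 2 fell, with a median of 0.93. The shares of all tested genes were 26.1% higher and 29.2% lower. This list, too, was chosen with earlier results of these data known. Without replicate 3, 4 rose. Map2, a microtubule-associated protein, was higher by 1.37 (SE 0.09, edgeR adjusted p = 9.73e-06). Dcx and Tubb3, a microtubule-binding protein and a tubulin of young neurons named after their values were seen, were higher by 3.73 and 1.81. The 2 that fell were Tead2, a transcription factor of the Hippo pathway, at -3.47 (SE 0.17, edgeR adjusted p = 3.87e-06) and Hes5, which is in both lists. Stmn1 was not called, at 0.20. Of 8 neuron markers, 5 were tested and 4 rose, with a summed level of 37.1 to 44.2 against 10.6 to 17.1 CPM. Of those 8, Slc17a6 was at 0 in all libraries, Slc32a1 at 0 in the GFP-positive ones and Stmn2 at 0.255 CPM or less. The part of neuronal transcripts in the SoxC-associated values was not tested.

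**Figure D5:**
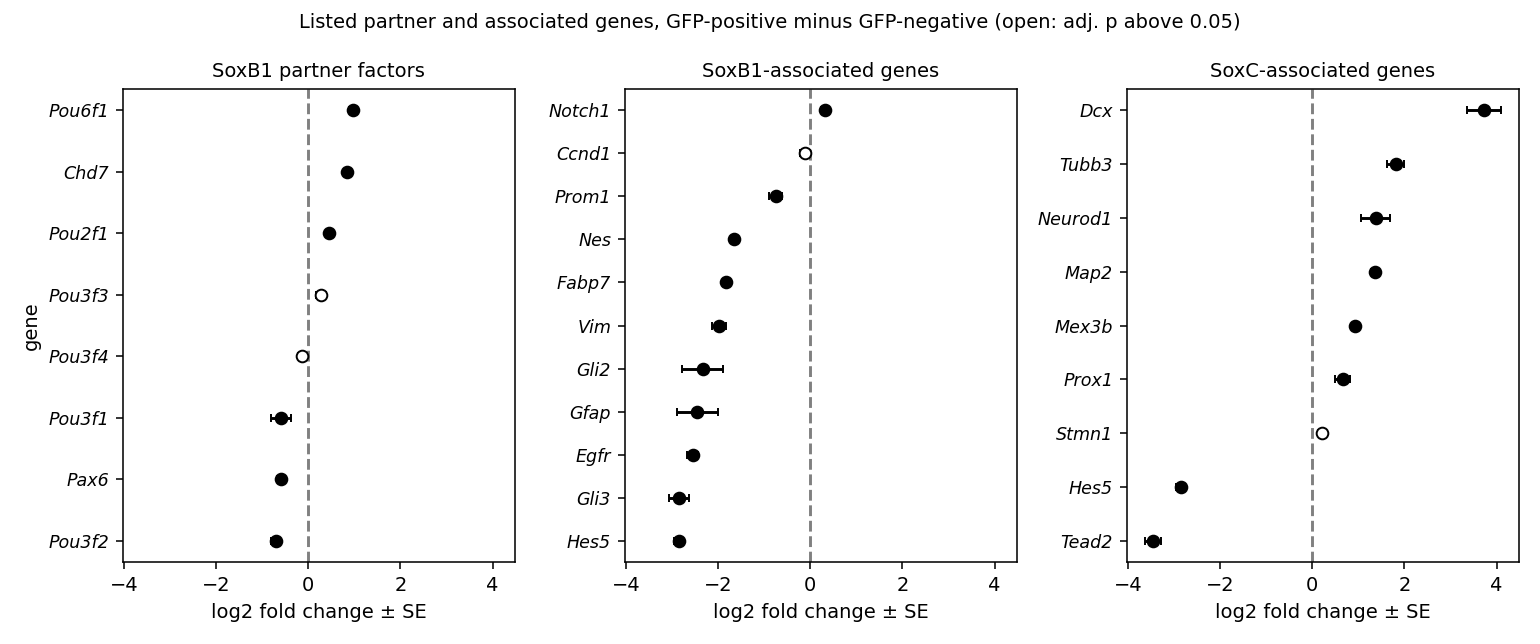
Log2 fold changes (GFP-positive minus GFP-negative) with standard errors for the tested genes of 3 lists: SoxB1 partner factors, SoxB1-associated genes and SoxC-associated genes, with open points where the edgeR adjusted p was above 0.05. The partner factors spread to both sides of 0, 9 SoxB1-associated genes lie below it as filled points, and the SoxC-associated genes run from Tead2 at -3.47 to Dcx at 3.73.

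The genes most like each member were taken as those with the smallest root-mean-square distance of mean-centred log2 CPM over the 6 libraries, among 10137 genes whose mean log2 CPM was at least 3. For Sox4 the nearest were D430019H16Rik at a distance of 0.020 and Plekhh1 at 0.038, with log2 fold changes of 0.96 and 0.95. For Sox3 they were Dpp6, Myo5a and Pkia at 0.044, 0.046 and 0.047, and for Sox2 Katnbl1, Mfsd14b and Pak4 at 0.025, 0.031 and 0.033. Sox1 had fewer close neighbours, with 2 genes within 0.1 (Tgif2 at 0.077 and Lactb2 at 0.086). Sox11 and Sox12 had 810 and 688 genes within that distance, Sox2 284, Sox3 111, Sox4 95 and Sox21 70. The log2 fold change of Sox1 was -1.80, and the median absolute value over all tested genes was 0.36. Near Sox21 were Kcnc1, Mki67 and Kif14, at 0.026, 0.026 and 0.029. Among the members themselves, the nearest to Sox3 was Sox4, and Sox11 and Sox12 were nearest to each other. These distances rest on 6 libraries, which share the 2 groups and the library numbers, and are a description.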

How the data were processed

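RNA of 6 sorted libraries was extracted with a column kit and made into libraries with the SMART-Seq Stranded kit, per the labels' protocols. The deposited table gives each gene's raw counts without normalization, per the file headers. Per the submitters' processing notes, the build was mm39 and the tools included featureCounts 2.0.0, TopHat2 2.1.1, SAMtools 1.9 and bcl2fastq 2.20.0.422, with quality reports from MultiQC 1.9 and FastQC 0.11.8. For the annotation, the strand setting and multiply mapped reads, the choice made is not given in the sources used here.

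Counts were tested with edgeR 4.0.16 (R 4.3.3): TMM scaling, filterByExpr, a quasi-likelihood F test with group as the only term, Benjamini-Hochberg adjustment over 14554 genes and a threshold of 0.05. Standard errors were derived from F as log2 fold change over its square root. The procedure was tested on simulated data, and no error rate from that is given here. The members and gene lists were chosen with earlier results of these data known. By rule, the genes to name were the members, Pdgfra, the 3 nearest genes of each member and the 3 smallest p-values of each list. Not all nearest genes are printed for Sox1, Sox4, Sox11 and Sox12. Genes outside that rule were named after their values were seen. Lengths, GC content, exons and overlaps come from GENCODE M21 and RefSeq (GRCm38), and promoter sequences from RefSeq.

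The labels do not say whether the libraries come from separate animals or cultures, so p-values cover only the spread among these libraries, possibly technical. That spread exceeded counting noise within each group (chi-square over its degrees of freedom 9.83 to 34.2). After subtracting group means, libraries with the same number correlated at 0.218, 0.355 and 0.159, and those of unlike number at -0.306 to 0.128. The highest unlike pair lay close to the same-numbered pair of replicate 3. The numbers were taken to pair the samples in the replicate block, while the main test used the group alone. Alternatives were other scalings and filters, DESeq2 1.42.0, limma-voom (limma 3.58.1), the replicate block, removal of a length and GC trend, and leaving out libraries.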

Additional observations from a re-analysis of the deposited data

How the results depend on the processing

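Each member was refitted under 19 alternatives. Sox1, Sox2, Sox3, Sox4 and Sox12 kept direction and call in all 19, and no member changed direction in any. Sox21 was called with the replicate block (log2 fold change -0.26, edgeR adjusted p = 0.0145), and at -0.32 with the block and the length and GC trend removed (0.00613). The block changed no other member's call, and with it 8340 genes were called in place of 8058. Leaving out a replicate or library gave -1.94 to -1.69 for Sox1, -0.45 to -0.31 for Sox2, 0.71 to 0.95 for Sox3, -0.34 to -0.09 for Sox21, 0.88 to 1.09 for Sox4, 0.28 to 0.46 for Sox11 and 0.44 to 0.53 for Sox12. Removal of the length and GC trend gave values outside these ranges for Sox2 (-0.29), Sox3 (0.66), Sox11 (0.21) and Sox12 (0.35), each still called. The call of Sox11 was lost without replicate 1 (0.33) and without replicate 3 (0.29), where fewer samples entered the fit. Over these leave-outs 5401 to 8637 genes were called, 2450 to 4169 higher and 2951 to 4468 lower, with the 2450 reached without replicate 3. The difference in the Sox11 to Sox12 log2 ratio lay between -0.188 and -0.0239, the latter without replicate 2. The list counts without GFP-negative replicate 2, without replicate 2, with the block and with the trend removed were chosen after seeing the data. So were the other list counts below. With the trend removed, 2 other Sox genes were lower in place of 1, and Notch1 lost its call. SoxC-associated genes called higher were 7 in place of 6 with the trend removed, without replicate 2 and without GFP-negative replicate 2. They were 5 without replicate 1 and 4 without replicate 3. SoxB1 partner factors called higher were 4 in place of 3 with the block, without replicate 2 and without GFP-negative replicate 2, among other settings. They were 2 with the block and the trend removed. Partner factors called lower were 2 in place of 3 with limma-voom, without replicate 1 and without replicate 3. That was also so without GFP-negative replicate 1 or 3 and without any single GFP-positive library. Depth limits no member, since the lowest count was 408.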
